A study of Homo sapiens with 6 samples.

Results

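The AKT kinases, the TSC complex and the subunits of the mTOR complexes were followed at the transcript level after depletion of SON, a splicing cofactor found in nuclear speckles. The genes were chosen by name: AKT1, AKT2, TSC1, TSC2, MTOR, RPTOR, RICTOR, MLST8 and MAPKAP1, which are 9 of the 58735 genes in the count table. All 9 passed the low-count filter, as did 16591 genes in all. The 6 RNA-seq libraries came from RPE-1, a human retinal pigment epithelial cell line, in which CETN2, a centriole protein, carries a GFP tag. In the same line PLK4, the kinase that starts centriole duplication, is under rtTA control that responds to doxycycline. Libraries of the siControl group (n = 3) came from cells given a scramble siRNA and those of the siSON group (n = 3) from cells given an siRNA against SON. Both groups received doxycycline (1 µg/mL) to induce PLK4, so the controls also carried an induced PLK4. Whether the line is a single clone, and whether the replicates were separate cultures, is not given in the sources used here, so p-values measure only the spread between these libraries, which may be technical.

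Library totals ran from 54572365 to 69764836 counts, and replicates differed by more than sampling noise (chi-square over its degrees of freedom, 6.77 to 24.7). In both groups replicate 1 stood apart. Pairs with replicate 1 had values of 18.55 to 24.7, and replicates 2 and 3 had 7.21 in siControl and 6.77 in siSON. SON itself went from 297 ± 14.5 CPM (counts scaled to the library size with TMM factors; SD, n = 3) in siControl to 67.6 ± 2.49 CPM (SD, n = 3) in siSON, 22.8% of the control level. Of 8 retinal pigment epithelium markers, 4 had a mean of at least 1 CPM (MITF, OTX2, BEST1 and PMEL), while TYR and TTR were at 0 in all libraries, and RPE65 and RLBP1 had at most 18 and 7 counts in any library. The markers summed to 51.0 to 52.8 CPM in siControl and 73.9 to 83.3 CPM in siSON, with higher means in siSON for MITF, OTX2 and BEST1 and a lower one for PMEL (2.07 and 0.201 CPM). Markers of other cell types differed in both directions, also within a cell type. For simple epithelium, mean levels in siControl and siSON were 220 and 615 CPM for KRT18 and 594 and 754 CPM for KRT8. EPCAM and CDH1, of the same list, had at most 12 and 11 counts in any library. For mesenchyme they were 142 and 39.4 CPM for COL1A1 but 359 and 568 CPM for CDH2. VIM (7154 and 6488 CPM) and FN1 (8247 and 8411 CPM) differed less. For neurons they were 92.0 and 30.4 CPM for SYT1 but 5.05 and 9.11 CPM for SNAP25. Of 3 blood markers HBB and CD3E were at 0 in all libraries, while PTPRC had 1.12 to 1.98 CPM in siControl and 0.275 to 0.310 CPM in siSON. The part of these differences in the results below was not tested, and in bulk RNA fewer cells of a kind and less RNA per cell cannot be told apart.

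AKT1 and AKT2 are serine/threonine kinases that are recruited to the plasma membrane by the lipid product of PI3K and are activated there by PDK1 and by mTORC2. AKT phosphorylates TSC2, the GTPase-activating subunit of the TSC complex, and so relieves the inhibition of RHEB, the small GTPase that switches on mTORC1. The kinase MTOR and its partner MLST8 are found in both mTOR complexes, RPTOR defines mTORC1, which promotes protein synthesis and restrains autophagy, and RICTOR and MAPKAP1 (also called SIN1) define mTORC2, which phosphorylates AKT and related kinases.

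The coding sequences of AKT1 (1440 bases) and AKT2 (1443 bases) are alike enough that a mix-up of reads between the paralogs has to be considered. The GENCODE release 29 models were identical at 79.5% of 1446 aligned positions, and the longest stretch shared without a mismatch was 32 bases. That stretch lies in the window shown here, which covers coding bases 685 to 744 of AKT1 (exons 7 and 8) and coding bases 691 to 750 of AKT2 (exons 8 and 9), counted from the start codon. Capitals mark the 6 positions at which the paralogs differ.
AKT1: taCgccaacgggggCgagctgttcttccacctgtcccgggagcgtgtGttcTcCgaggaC
AKT2: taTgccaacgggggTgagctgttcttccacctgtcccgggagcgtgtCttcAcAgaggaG
No 50-base stretch of the AKT1 model occurred in AKT2. Of the 3867 such stretches in AKT1, 582 (15.1%) also occurred, in either orientation, in AL583722.2, an antisense gene that overlaps AKT1 and had between 10 and 37 counts per library.

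After SON depletion AKT1, AKT2 and TSC2 fell, MTOR, RPTOR, TSC1, MAPKAP1 and RICTOR rose, and MLST8 did not pass the test. By edgeR's quasi-likelihood test, 8 of the 9 genes were called (Benjamini-Hochberg adjusted p below 0.05), beside 71.7% of all genes tested. Protein-coding genes alone, to which all 9 belong, were called more often still: 2936 of the 13008 tested were not called. With so high a background, that count sets these genes apart from no others. The split was 5 higher, beside 35.2% of all genes, and 3 lower, beside 36.5%. All 3 genes that fell did so by at least 2-fold (20.5% of all genes tested were called lower by that much), and RICTOR alone rose by at least 2-fold (8.72% of all genes). The groups did not overlap in CPM for 8 of the 9, beside 75.1% of all genes. The median log2 fold change of the 9 was 0.41, and that of all genes tested was -0.027.

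**Figure D1:**
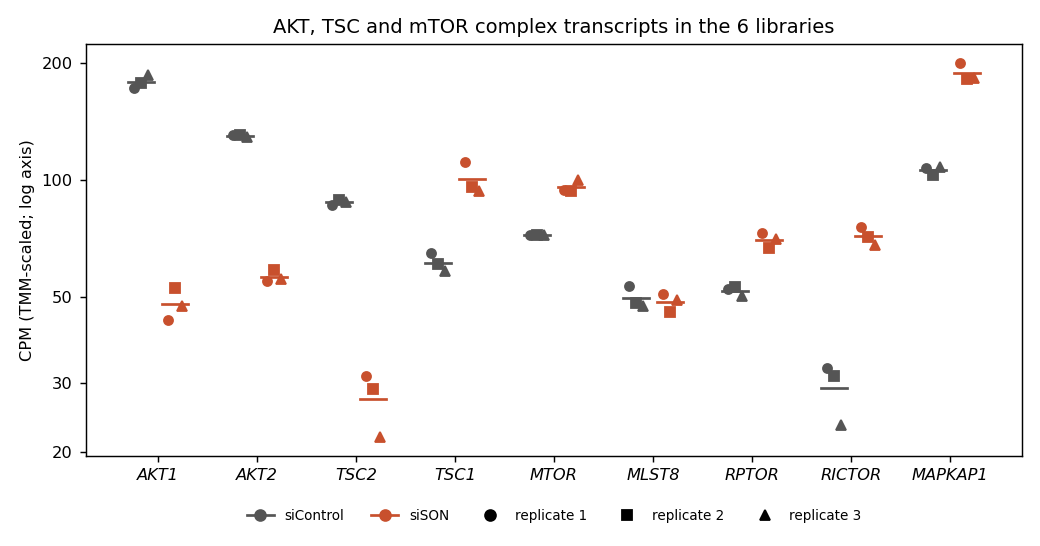
Level of each gene (CPM, TMM-scaled, log axis) in the 6 libraries; grey, siControl; orange, siSON; symbol shape, replicate number; line, group mean. AKT1, AKT2 and TSC2 sit lower in siSON, 5 genes sit higher, and the MLST8 groups overlap.

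AKT1 (ENSG00000142208; GRCh38 chromosome 14, 104769349 to 104795751, minus strand), a broadly expressed paralog that promotes growth and survival, was at 173, 178 and 187 CPM in the siControl libraries and at 43.7, 52.8 and 47.4 CPM in the siSON libraries, each in replicate order. Every siSON library lay far below every control. The group means were 179 ± 7.08 and 47.9 ± 4.57 CPM (± SD, 3 libraries each), or 26.7% of control. On the log2 scale the fold change was -1.90 (SE 0.07, adjusted p 3.72e-09), at percentile 8.90 of all genes tested.

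AKT2 (ENSG00000105221; chromosome 19, 40230317 to 40285536, minus strand), the paralog best known for insulin-stimulated glucose uptake, had 130.8, 131 and 129 CPM in the siControl libraries and 54.9, 58.7 and 55.7 CPM in the siSON libraries. Both groups were tight and far apart. The means were 130.2 ± 1.20 and 56.4 ± 1.98 CPM (± SD, 3 libraries each), 43.3% of the control level. The AKT2 fold change was -1.21 in log2 units (SE 0.05, adjusted p 8.70e-09). The gene contains AC118344.1, a sense-intronic transcript with 2 to 71 counts, and MIR641, both on its own strand.

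The subunits of the TSC complex moved in opposite directions. TSC2 (ENSG00000103197; chromosome 16, 2047465 to 2089487, plus strand), the catalytic subunit, had 86.4, 88.8 and 88.2 CPM in siControl and 31.3, 29.03 and 21.8 CPM in siSON. Replicate 3 of siSON was the lowest, and the groups did not overlap. The means were 87.8 ± 1.25 and 27.4 ± 4.94 CPM (± SD, 3 libraries each), and the fold change was -1.68 in log2 units (SE 0.11, adjusted p 2.09e-07). TSC1 (ENSG00000165699; chromosome 9, 132891348 to 132946874, minus strand), which stabilises TSC2, had 64.9, 61.0 and 58.3 CPM in siControl and 111.7, 96.0 and 93.9 CPM in siSON. All siSON libraries were above all controls, replicate 1 most of all. TSC1 rose from 61.4 ± 3.32 to 100.5 ± 9.70 CPM (± SD, 3 libraries each), or 0.71 as log2 fold change (SE 0.08, adjusted p 6.09e-06).

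TSC2 overlaps NTHL1 and PKD1, both on the other strand. NTHL1, a DNA glycosylase, had 381 to 493 counts in siControl and 54 to 100 in siSON (log2 fold change -2.07, adjusted p 4.05e-06). For PKD1 the log2 fold change was -0.31 (adjusted p 0.0160). Of the 50-base stretches of the TSC2 model 5.77% were shared with NTHL1 and none with another gene. Since the strand setting of the counting is not given in the sources used here, the part of these neighbours in the TSC2 counts was not tested.

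MTOR (ENSG00000198793; chromosome 1, 11106535 to 11262507, minus strand), the kinase shared by both complexes, had 72.2, 72.3 and 72.2 CPM in siControl and 94.5, 94.1 and 100.1 CPM in siSON. The controls differed by less than 1 CPM, and every siSON library was above them. The means were 72.2 ± 0.0862 and 96.2 ± 3.38 CPM (± SD, 3 libraries each), and the fold change was 0.41 in log2 units (SE 0.05, adjusted p 2.79e-05). MTOR-AS1 and ANGPTL7, on the other strand within the gene, had at most 4 counts in a library.

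MLST8 (ENSG00000167965; chromosome 16, 2204248 to 2209416, plus strand), the small WD-repeat partner of the kinase, had 53.4, 48.4 and 47.4 CPM in siControl and 51.1, 45.8 and 49.2 CPM in siSON. The groups overlapped. Its log2 fold change was -0.031 (95% interval -0.19 to 0.12, adjusted p 0.707), an interval that leaves room for a fall or a rise of this size. Scaling by library size alone, which moved the median of all genes from -0.027 to -0.22, gave MLST8 a log2 fold change of -0.23 (adjusted p 0.0103), and the estimate was 0.024 without siSON replicate 2. The overlapping gene BRICD5, on the other strand, had 273, 274 and 292 counts in siControl and 4, 8 and 9 in siSON (log2 fold change -4.92, adjusted p 2.99e-08), and 6.58% of the 50-base stretches of the MLST8 model occurred in it.

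RPTOR (ENSG00000141564; chromosome 17, 80544819 to 80966371, plus strand), the scaffold that presents substrates to mTORC1, had 52.5, 53.1 and 50.3 CPM in siControl and 73.1, 66.8 and 70.7 CPM in siSON. The siSON libraries were all higher. RPTOR rose from 51.9 ± 1.47 to 70.2 ± 3.18 CPM (± SD, 3 libraries each), or 0.44 as log2 fold change (SE 0.06, adjusted p 4.82e-05). The sizes of the MTOR and RPTOR rises depended on the scaling. With library size alone they were 0.22 (adjusted p 0.00352) and 0.24 (adjusted p 0.00357), by cyclic loess scaling 0.20 and 0.27, and neither passed a test against a 1.5-fold change.

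The subunits that define mTORC2 also rose, with larger estimates. RICTOR (ENSG00000164327; chromosome 5, 38937919 to 39074408, minus strand), its scaffold, had 32.9, 31.4 and 23.4 CPM in siControl and 75.9, 71.5 and 68.1 CPM in siSON. Replicate 3 was the lowest in each group, and the groups were far apart. The means were 29.2 ± 5.08 and 71.9 ± 3.92 CPM (± SD, 3 libraries each), 2.46-fold higher on the fitted scale (log2 fold change 1.30, SE 0.11, adjusted p 1.76e-06), at percentile 95.2 of all genes tested. OSMR, a cytokine receptor gene that overlaps RICTOR on the other strand, was counted 6044 to 6944 times in siControl and 9160 to 10943 times in siSON (log2 fold change 0.99, adjusted p 4.51e-08), and 1.85% of the 50-base stretches of the RICTOR model occurred in it. The part of OSMR reads in the RICTOR rise was not tested.

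MAPKAP1 (ENSG00000119487; chromosome 9, 125437393 to 125707234, minus strand), which guides mTORC2 to its substrates, had 107.4, 103.3 and 108.5 CPM in siControl and 200.7, 182 and 183 CPM in siSON. Every siSON library exceeded every control by a wide margin. MAPKAP1 rose from 106 ± 2.73 to 189 ± 10.4 CPM (± SD, 3 libraries each), or 0.83 as log2 fold change (SE 0.06, adjusted p 1.71e-07). No 50-base stretch of its model occurred in another gene. The MAPKAP1 rise was 0.63 with library size alone and 0.54 by cyclic loess scaling, both still called.

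**Figure D2:**
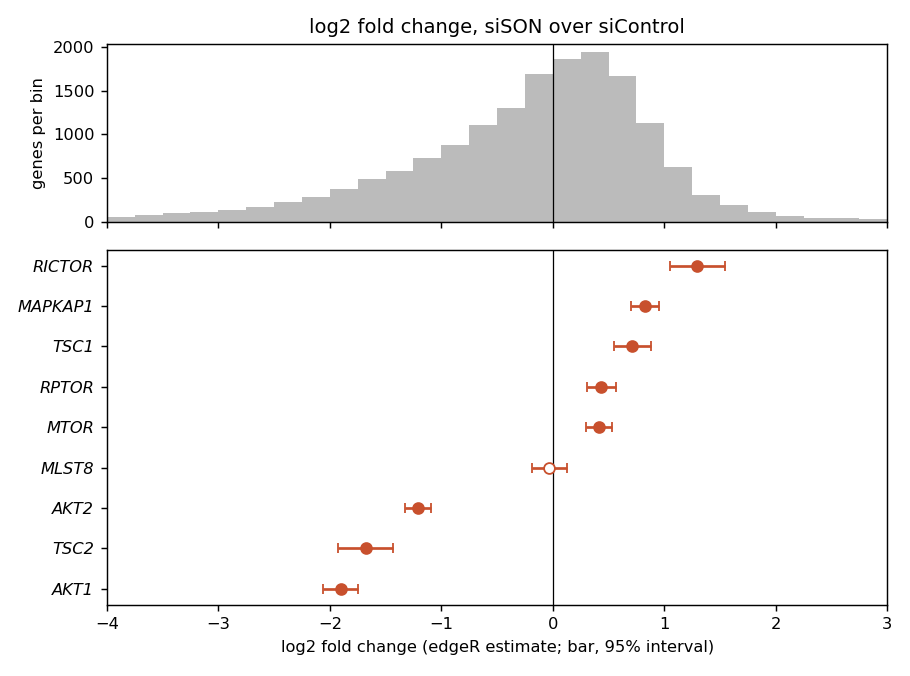
Top, number of genes per 0.25-wide bin of log2 fold change (siSON over siControl), with the tails beyond the axis left out; bottom, the edgeR estimate of each gene with its 95% interval, filled where the adjusted p was under 0.05. The estimates run from -1.90 for AKT1 to 1.30 for RICTOR, and only the MLST8 interval spans 0.

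Ratios of counts within a library do not depend on the scaling, so 7 of them were used to ask whether pairs of these genes changed unequally. The log2 ratio of TSC1 to TSC2 was -0.41, -0.54 and -0.60 in siControl and 1.83, 1.72 and 2.10 in siSON. The sign turned in every library: TSC1 had 0.699 times the counts of TSC2 in siControl and 3.70 times in siSON, a 5.29-fold shift. The ratio of AKT1 to AKT2 fell from 0.46 ± 0.07 to -0.24 ± 0.09 (log2, SD, n = 3 each), so the AKT1 fall was the deeper by 0.70 on the log2 scale. These are counts of genes of unlike length, so a log2 ratio of 0 does not mean equal levels. Per kilobase of the union of annotated exons, AKT1 was above AKT2 in both groups. Per kilobase of the longest transcript it was below AKT2 in both. RPTOR to RICTOR went from 0.84 ± 0.23 to -0.032 ± 0.08 (log2, SD, n = 3 each). In counts, RPTOR exceeded RICTOR 1.79-fold in siControl and was level with it in siSON (0.978). Per kilobase of either length, RPTOR stayed above RICTOR in siSON.

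Against the shared kinase, RICTOR gained 0.90 (log2 ratio to MTOR from -1.32 ± 0.26 to -0.42 ± 0.12, SD, n = 3 each). MLST8 lost 0.44 against MTOR, from -0.54 ± 0.09 to -0.98 ± 0.08. MAPKAP1 to RICTOR went from 1.88 ± 0.29 to 1.39 ± 0.04, a change of -0.49, which was -0.32 without siControl replicate 3. RPTOR and MTOR moved apart least: their log2 ratio was -0.48 ± 0.04 in siControl and -0.45 ± 0.07 in siSON, a change of 0.021, and the groups overlapped. In the other 6 ratios all siSON libraries lay on 1 side of all controls, for which a 2-sided exact permutation test gives p = 0.1, the smallest that 3 libraries against 3 allow, or 0.117 adjusted over the 7 ratios; for RPTOR to MTOR it gave p = 0.8.

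**Figure D3:**
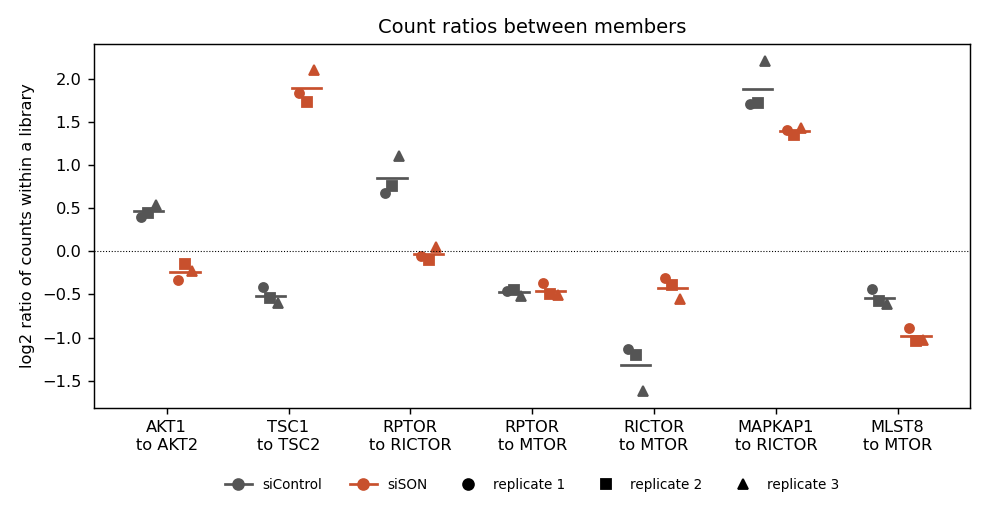
Log2 ratio of the counts of 2 genes within each library; grey, siControl; orange, siSON; symbol shape, replicate number; line, group mean; dotted line, equal counts. The TSC1 to TSC2 and AKT1 to AKT2 ratios cross the line of equal counts, and the RPTOR to MTOR groups overlap. Counts are not corrected for gene length, and per kilobase AKT1 and AKT2 keep their order.

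Levels of different genes were compared per kilobase of annotated exon (RPKM, from the TMM-scaled CPM and the union of annotated exons). In siControl the order was AKT1 (16.1 ± 0.634 RPKM), MAPKAP1 (15.8 ± 0.404), MLST8 (11.5 ± 0.750), AKT2 (8.66 ± 0.0799), MTOR (5.96 ± 0.00711), RPTOR (5.04 ± 0.143), TSC2 (4.47 ± 0.0638), TSC1 (3.49 ± 0.189) and RICTOR (2.16 ± 0.375; SD, n = 3 each). AKT1 and MAPKAP1 overlapped in their libraries; the other neighbours in this order did not. In siSON MAPKAP1 led with 28.0 ± 1.54 RPKM, followed by MLST8 with 11.3 ± 0.621, MTOR with 7.94 ± 0.279, RPTOR with 6.82 ± 0.308, TSC1 with 5.71 ± 0.551 and RICTOR with 5.30 ± 0.290 (± SD, 3 libraries each). The last places went to AKT1 with 4.30 ± 0.409, AKT2 with 3.75 ± 0.132 and TSC2 with 1.40 ± 0.252 RPKM. TSC1 and RICTOR overlapped there. AKT1 thus went from rank 1 to rank 7 of the 9, and RICTOR from rank 9 to rank 6. These ranks depend on the length used: per kilobase of the longest annotated transcript, AKT1 stood at rank 4 in siControl and at rank 8 in siSON, below AKT2 in both groups.

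The genes differ in structure as well. Across the protein-coding genes tested, those called at least 2-fold lower (2427 genes) had a median GC content of 57.2% and a median intron length of 824 bases in their transcript models (the transcript with the longest coding sequence), beside 49.2% and 2461 bases in those called at least 2-fold higher (1121 genes). Across genes, which are not independent replicates, Spearman's rho of the log2 fold change was -0.21 with GC content (13003 genes) and 0.25 with median intron length (12705 genes). The 3 genes that fell had GC contents of 58.7% (AKT1), 58.3% (AKT2) and 61.4% (TSC2). Their median introns measured 434.5 bases in AKT1, 1093 in AKT2 and 637 in TSC2. AKT1 holds 3 introns under 200 bases, AKT2 2 and TSC2 7. Of the genes that rose, MTOR and RICTOR hold 4 each, TSC1 1, and RPTOR and MAPKAP1 0. These counts stand beside unlike exon numbers: 13 in AKT1, 14 in AKT2 and 42 in TSC2. MTOR has 58 exons, RICTOR 39, RPTOR 34, TSC1 23 and MAPKAP1 12. The median number of such introns was 1 in genes called at least 2-fold lower and 0 in those at least 2-fold higher. Spearman's rho of the log2 fold change with that number was -0.167 (13008 genes).

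RICTOR, which rose most, had the lowest GC content of the 9 at 38.2%, although its median intron of 738 bases is shorter than that of AKT2. MAPKAP1 had the longest median intron, 21726 bases, and RPTOR combined a GC content of 59.8% with a median intron of 5065 bases. MTOR (52.2%, 1319 bases) and TSC1 (48.3%, 884 bases) lay between. MLST8 did not follow the trend of all genes: it had the highest GC content (63.7%) and the shortest median intron (143 bases, at percentile 2.56 of protein-coding genes tested), with 4 introns under 200 bases, and it was the gene that was not called. With 9 genes, chosen by name, these values are a description.

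**Figure D4:**
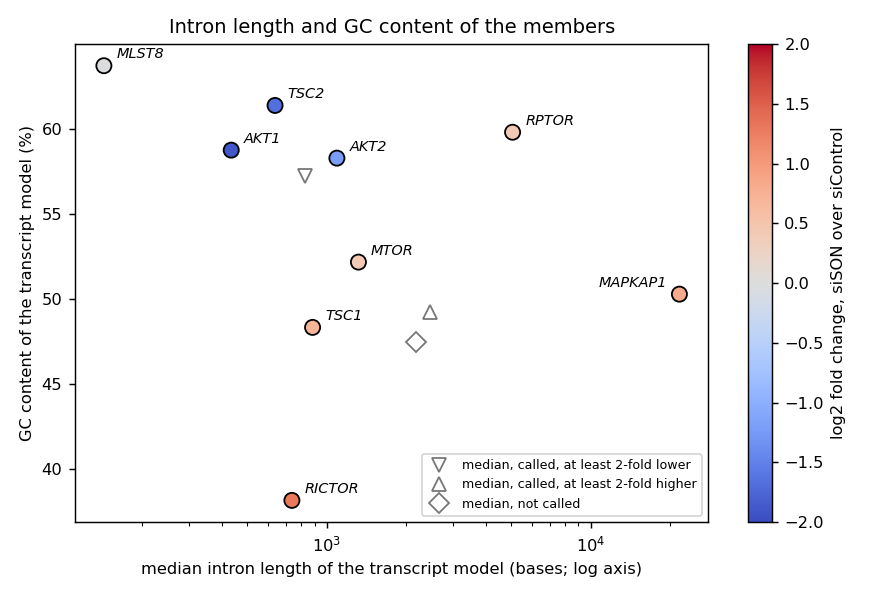
GC content (%) against median intron length (bases, log axis) of each gene's transcript model, coloured by log2 fold change (siSON over siControl); open symbols, medians of protein-coding genes by call. AKT1, AKT2 and TSC2 have GC contents of 58.3% to 61.4%, above the median of genes that fell at least 2-fold, and MLST8 lies beyond it in both measures.

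The promoters of the genes with the deepest fall and the largest rise are shown because AKT1 and RICTOR stand at the ends of this range. The sequences are the 250 bases before the RefSeq start (GRCh38.p14), from chr14:104795749-104795998 for AKT1 and chr5:39074400-39074649 for RICTOR, both minus strand. Capitals mark GC boxes, GGGCGG or its complement CCGCCC, and each of 2 overlapping matches is counted.
AKT1: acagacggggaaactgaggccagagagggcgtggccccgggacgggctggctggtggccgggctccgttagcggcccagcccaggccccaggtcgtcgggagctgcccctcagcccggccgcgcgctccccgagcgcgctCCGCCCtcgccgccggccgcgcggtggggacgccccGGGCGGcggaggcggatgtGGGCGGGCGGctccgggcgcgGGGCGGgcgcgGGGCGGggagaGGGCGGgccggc
RICTOR: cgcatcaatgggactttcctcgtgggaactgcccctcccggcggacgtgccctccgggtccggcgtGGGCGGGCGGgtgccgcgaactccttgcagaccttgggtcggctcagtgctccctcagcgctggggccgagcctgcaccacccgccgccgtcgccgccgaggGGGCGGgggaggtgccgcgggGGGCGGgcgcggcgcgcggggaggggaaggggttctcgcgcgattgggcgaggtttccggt
AKT1 had 7 GC boxes, 39 CpG dinucleotides and a GC content of 83.2% in this window, and RICTOR had 4 boxes, 35 CpG dinucleotides and 76.0%. Both lie above the median of all 35116 RefSeq windows of this length, 58.0% GC and 11 CpG dinucleotides, and 42.6% of those windows hold a GC box. Windows were found for 8 of the 9 genes, MLST8 excepted, and the one nearest the GENCODE gene start was used. The RefSeq start of the window lay 2258 bases from the GENCODE start in TSC1, 520 in TSC2 and 191 in AKT2. In the other genes it lay at most 44 bases away, so the windows are not equivalent. Of the 8 genes, all but RPTOR held a GC box, with 4 in AKT2, 2 in TSC1 and 1 each in TSC2, MTOR and MAPKAP1. CCAAT, on either strand, was found in MTOR and RICTOR, and in 32.0% of all windows. TATAAA, on either strand, was found in RPTOR, and in 10.7% of all windows.

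For each gene, the protein-coding gene with the closest profile was sought over the 6 libraries, by the root mean square distance of centred log2 CPM. The closest to AKT1 was C4orf46 (distance 0.031), to AKT2 DISC1 (0.017), to TSC2 GBA2 (0.044), to TSC1 LRRC37B (0.019) and to MTOR PARS2 (0.015). HSPB1 was closest to RPTOR (0.023), ABLIM1 to MLST8 (0.021), PSMD8 to MAPKAP1 (0.016) and FIGN to RICTOR (0.044). With 2 groups of 3 such likeness is common: 1443 protein-coding genes lay within 0.1 of MTOR and 1264 within 0.1 of RPTOR, but 18 within 0.1 of TSC2 and 9 within 0.1 of RICTOR. Among the 9 themselves, MTOR and RPTOR were the closest pair (0.050), followed by TSC1 and MAPKAP1 (0.086).

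Other genes of the pathway were taken from 8 lists, which together name 132 genes. Of the 130 tested, 106 (81.5%) were called, 70 higher and 36 lower, with a median log2 fold change of 0.29, beside 71.7% and -0.027 for all genes tested. The share of all genes is a low yardstick, since it includes genes that are not protein-coding. Of the 13008 protein-coding genes tested, 2936 were not called. Those called higher were 4121 under 2-fold and 1121 at least 2-fold, and those called lower 2403 and 2427. This applies to each list below. Among genes of PI3K, PDK1 and phosphoinositide phosphatases, not all of which act upstream of AKT, 17 of 20 were called (85.0%), 12 higher and 5 lower (median 0.54). Over all genes 35.2% were called higher and 36.5% lower. The split of this list was 12 and 6 with library size alone and 12 and 5 by cyclic loess scaling. PIK3C2A, a class II PI3K, rose from 54.4 ± 2.31 to 108.9 ± 3.17 CPM (± SD, 3 libraries each; log2 fold change 1.00, adjusted p 4.68e-08), and PIK3C3, the class III enzyme of autophagy, rose by 0.84 (adjusted p 2.71e-07). PIK3CD, a class I catalytic subunit, fell to 11.7 ± 0.0337 from 25.04 ± 2.03 CPM (± SD, 3 libraries each; log2 fold change -1.10, adjusted p 4.35e-07). INPP5D, an inositol phosphatase of low level here (3.54 ± 0.484 CPM in siControl, SD, n = 3), had a log2 fold change of -3.34 (adjusted p 9.77e-07).

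Among AKT phosphatases, inhibitors and substrates, 17 of 23 were called (73.9%, near the 71.7% of all genes tested), 13 higher and 4 lower (median 0.21), beside 35.2% higher and 36.5% lower over all genes. This split was 10 and 8 with library size alone and 11 and 7 by cyclic loess scaling. TRIB2, a pseudokinase that binds AKT, rose from 10.7 ± 0.601 to 47.2 ± 3.40 CPM (± SD, 3 libraries each; log2 fold change 2.15, adjusted p 3.56e-09). CDKN1B, the cell cycle inhibitor p27, rose from 105.8 ± 1.19 to 260 ± 7.19 CPM (± SD, 3 libraries each; log2 fold change 1.29, adjusted p 3.37e-09). PFKFB2, a regulator of glycolysis, and TBC1D1, a Rab GTPase-activating protein, had log2 fold changes of -1.51 (adjusted p 0.000272) and -0.29 (adjusted p 0.0129). The TBC1D1 estimate was -0.49 with library size alone, -0.54 by cyclic loess scaling and -0.17 without siSON replicate 1.

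On the axis of TSC, RHEB and AMPK, 13 of 14 genes were called (92.9%, beside 71.7% of all genes), 10 higher and 3 lower (median 0.53). Over all genes 35.2% were called higher and 36.5% lower. The split of the list was 8 and 3 with library size alone and 10 and 3 by cyclic loess scaling. RHEB, the GTPase that TSC2 switches off, rose from 93.2 ± 3.51 to 166 ± 6.29 CPM (± SD, 3 libraries each; log2 fold change 0.83, adjusted p 1.33e-07). CAB39, a scaffold of the kinase STK11, rose by 1.12 (adjusted p 2.40e-08), while STK11 itself, the AMPK kinase, went from 98.8 ± 6.21 to 55.9 ± 0.481 CPM (± SD, 3 libraries each; log2 fold change -0.82, adjusted p 3.36e-07). DDIT4, an inhibitor of mTORC1, had a log2 fold change of -0.68 (adjusted p 0.000720).

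Of 7 other subunits and assembly factors of the mTOR complexes, 4 were higher, 2 lower and 1 was not called (median 0.21). That is 85.7% called, beside 71.7% of all genes. The split was 3 higher and 2 lower both with library size alone and by cyclic loess scaling. TELO2, a chaperone adaptor for mTOR and related kinases, fell from 54.3 ± 2.25 to 10.4 ± 1.33 CPM (± SD, 3 libraries each; log2 fold change -2.38, adjusted p 4.35e-09). Its fall was deeper than that of any of the 9 genes. RUVBL2, an ATPase of the same assembly machinery, had a log2 fold change of -0.28 (adjusted p 0.000381; -0.48 with library size alone and -0.52 by cyclic loess scaling). The mTORC2-associated proteins PRR5 and PRR5L rose by 1.18 (adjusted p 0.000386) and 0.54 (adjusted p 0.000110), PRR5 from a low level of 1.43 ± 0.316 CPM (SD, n = 3). The PRR5L rise was 0.34 with library size alone. TELO2 overlaps IFT140 on the other strand, and PRR5 shares its strand with the readthrough gene PRR5-ARHGAP8, so the assignment of reads to them is uncertain.

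In the list on amino acid sensing by the Rag GTPases, 24 of 31 genes were called (77.4%, beside 71.7% of all genes), 13 higher and 11 lower (median -0.040), a count and a split near those of all genes. With library size alone the split was 12 and 15, and by cyclic loess scaling 13 and 14. SLC38A9, a lysosomal arginine sensor, rose by 1.13 (adjusted p 4.39e-07) and WDR59, a subunit of GATOR2, by 0.87 (adjusted p 6.29e-07). WDR24, another GATOR2 subunit, fell from 17.7 ± 0.0261 to 5.44 ± 0.802 CPM (± SD, 3 libraries each; log2 fold change -1.70, adjusted p 1.28e-07). KPTN, of the KICSTOR complex, fell from 9.90 ± 0.447 to 1.92 ± 0.172 CPM (± SD, 3 libraries each; log2 fold change -2.37, adjusted p 2.35e-08).

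Of 18 substrates and effectors of mTORC1, 13 were higher and 4 lower (94.4% called, beside 71.7% of all genes; median 0.51). Over all genes 35.2% were called higher and 36.5% lower. The split of the list was 10 and 4 both with library size alone and by cyclic loess scaling. EIF4EBP2, a repressor of translation initiation, rose from 96.5 ± 5.84 to 315 ± 31.0 CPM (± SD, 3 libraries each; log2 fold change 1.70, adjusted p 9.72e-09), and PDCD4, another translation repressor, rose from 75.0 ± 0.807 to 219 ± 10.8 CPM (± SD, 3 libraries each; log2 fold change 1.55, adjusted p 2.45e-09). The S6 kinase gene RPS6KB2 fell by 1.38 (adjusted p 3.51e-08) on the log2 scale. RPS6KA1, a related kinase of the MAP kinase pathway, is counted among the 4 lower genes of this list. It fell from 28.3 ± 1.93 to 3.49 ± 0.721 CPM (± SD, 3 libraries each; log2 fold change -3.02, adjusted p 9.05e-09).

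For mTORC2, 8 of 9 listed substrates and effectors were tested, with 3 higher and 3 lower (75.0% called, beside 71.7% of all genes; median 0.057). NDRG1, a stress-responsive gene whose protein is phosphorylated by the mTORC2 substrate SGK1, rose from 49.9 ± 1.06 to 163 ± 15.5 CPM (± SD, 3 libraries each; log2 fold change 1.71, adjusted p 5.89e-09). PRKCA rose by 0.39 (adjusted p 5.47e-05), or by 0.19 with library size alone and 0.14 by cyclic loess scaling, whereas PRKCD, another protein kinase C, fell from 24.9 ± 2.27 to 4.39 ± 0.852 CPM (± SD, 3 libraries each; log2 fold change -2.51, adjusted p 2.96e-08), and PKN2, a related kinase, had a log2 fold change of -0.95 (adjusted p 1.50e-07). Target genes of the FOXO transcription factors, which AKT keeps out of the nucleus, were called at about the rate of all genes, 11 of 15 tested (73.3%, beside 71.7%), with 6 higher and 5 lower (median -0.16). The split was 5 and 9 with library size alone and 5 and 8 by cyclic loess scaling. Beside CDKN1B, which is in this list too, INSR, the insulin receptor, rose by 0.82 (adjusted p 2.03e-06). TXNIP, an inhibitor of glucose uptake, fell from 93.1 ± 3.21 to 22.4 ± 1.84 CPM (± SD, 3 libraries each; log2 fold change -2.06, adjusted p 2.47e-09), and CCNG2 had a log2 fold change of -0.85 (adjusted p 2.71e-07).

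**Figure D5:**
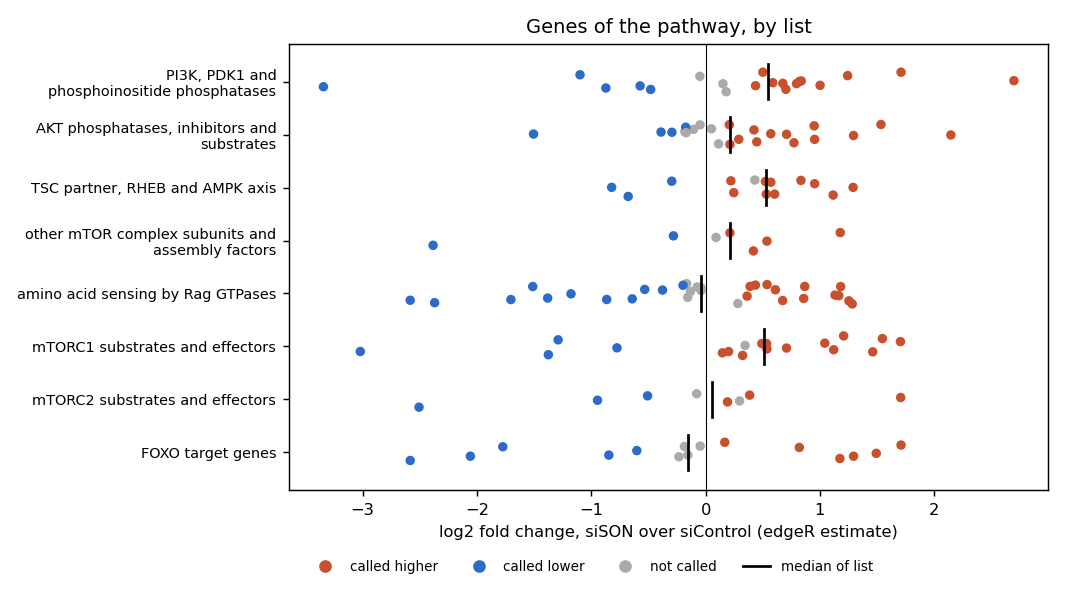
Log2 fold change (siSON over siControl, edgeR estimate) of each tested gene in the 8 lists; orange, called higher; blue, called lower; grey, not called; black line, median of the list; vertical jitter only separates points. The PI3K, TSC and mTORC1 effector lists have medians of 0.51 to 0.54, while the Rag and FOXO lists have medians just below 0.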

How the data were processed

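The values are raw read counts for each gene and library, in the table the authors deposited. The submitters' processing notes name cutadapt 1.16, STAR 2.5.2a, featureCounts 1.6.2, DESeq2 1.28.1 and hg38. Whether counting used strand or multi-mapped reads is not given in the sources used here, so counts of overlapping genes are uncertain. All 58735 gene identifiers matched GENCODE release 29. R 4.3.3 and edgeR 4.0.16 were used: filterByExpr (minimum count 10), TMM scaling, a robust quasi-likelihood fit of group, and Benjamini-Hochberg adjustment over all genes tested, with calls at 0.05. The fit was tested on simulated data with 200 changed genes. That is far fewer than were called here, so its behaviour with so many changes was not tested. The SE is the absolute log2 fold change over the square root of F. Ratios used counts plus 0.5. A floor of 3 counts equals 0.0430 to 0.0550 CPM by library and covers counting error only.

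The genes and lists were chosen with earlier results of these data known. Named from each list are the 2 genes called higher and the 2 called lower with the smallest adjusted p. Of the 132 listed genes, 6 stand in 2 lists. Many named genes overlap another gene. Alternatives were the replicate block, DESeq2 1.42.0, limma-voom (limma 3.58.1), RLE factors, library size alone, cyclic loess, no filter, a mean count of at least 50, a 1.5-fold test and the omission of each library.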

Additional observations from a re-analysis of the deposited data

How the results depend on the processing

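The 9 genes gave 8 calls under all alternatives but 2: library size alone called 9 (MLST8 added) and the test against a 1.5-fold change called 6 (MTOR and RPTOR lost). That test, by its construction, also lowered the number of all genes called from 11888 to 6126, and the lists to 11 (PI3K), 7 (AKT), 5 (TSC, RHEB and AMPK), 2 (other subunits), 13 (Rag), 11 (mTORC1) and 3 (mTORC2). Library size alone called 4441 genes higher and 7351 lower, against 5834 and 6054 with TMM. AKT1 ranged from -2.14 to -1.83 and RICTOR from 1.10 to 1.37 on the log2 scale over 15 alternatives each. Omitting single libraries moved MLST8 from -0.074 to 0.024, the latter without siSON replicate 2, and the change of the RPTOR to MTOR ratio ran from -0.022 to 0.044 over the omissions of single libraries, turning to -0.0020 without siControl replicate 3 and to -0.022 without siSON replicate 1; the cause was not tested. The replicate numbers were not taken as pairs, since what they stand for is not given in the sources used here. The correlation of deviations was 0.0461 to 0.194 between same-numbered libraries and -0.138 to 0.0286 between others. All 6 libraries correlated best with their own number, so a part shared by same-numbered libraries may be present. With the replicate block 8 of the 9 genes and 12313 genes in all were called.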
